A study of Arabidopsis thaliana with 9 samples.

Results

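Inflorescence was compared with leaf in wild-type Arabidopsis thaliana (Col-0) on a 1-colour Agilent array whose probes mostly target transcripts from between annotated genes. The comparison used 3 inflorescence arrays and 3 leaf arrays of the 9 in the series, and a gene entered it when every array of inflorescence, of leaf or of both showed its probe well above background. That rule kept 1769 of the 5077 genes on the array. Inflorescences, which carried buds, open flowers and a few siliques at a very early stage, were cut from 4-week-old plants that grew on half-strength MS medium or in a greenhouse. Leaves came from 30-day-old plants in hydroponic MGRL solution. The ecotype label carries a number that rises from sample to sample, and Col-0 for all plants comes from the growth protocol. Both kinds of plant grew at 22 °C in a 16 h day and an 8 h night, and none carried a transgene or a treatment named in the labels. Organ, age and culture therefore cannot be told apart in any difference below. The sources used here do not give the hour of harvest, so it cannot be told apart from organ either. None of the markers listed for floral organs, anthers and pollen, photosynthesis or roots was on the array, so the organ labels could not be checked with defining markers.

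An inflorescence carries meristems, sepals, petals, stamens and carpels at many ages, while a grown leaf is mainly photosynthetic tissue. Long intergenic non-coding RNAs (lincRNAs) are transcribed between annotated genes, and many are scarce and present in few organs. MicroRNA precursors are hairpin RNAs from which Dicer-like 1 cuts the mature microRNA, and a probe on this array reads precursor RNA and not the mature form. In these bulk organs, fewer cells of a type and less RNA per cell cannot be told apart.

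Signals are given as log2 of the processed signal minus the 75th percentile of 1345 probes well above background on all 9 arrays, so that 0 marks a fairly bright probe. Differences are log2 inflorescence minus log2 leaf with the standard error of the limma fit, with 3 arrays per organ. A gene was called when its Benjamini-Hochberg adjusted p over all 1769 genes was under 0.05 and its fold was at least 2. Where the probes of a gene were not well above background on any array of an organ, the fold is a lower bound, computed against the array floor or the probe's own signal, whichever was higher. These bounds rest on floors that differ between arrays. The folds over a common floor, the highest of the 6 array floors, are smaller and are given beside them. That floor is -4.05, from leaf replicate 2. A gene with every signal under it differs by 0 over it by construction, which says nothing about the organs. A level is never set against that of another probe.

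Leaf replicate 2 stood apart in brightness: 10.6% of its probes were well above background, against 24.1% to 37.8% on the other 5 arrays. Replicates 1 and 2 of both organs lay on slide 1, and replicate 3 of both on slide 2. Across the tested genes, arrays correlated at 0.946 to 0.991 within inflorescence, 0.924 to 0.951 within leaf and 0.725 to 0.817 between the organs. These are correlations across genes, which do not stand for replicates.

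Of the 1769 genes, 373 (21.1%) were called: 184 (10.4%) toward inflorescence and 189 (10.7%) toward leaf. Without any test, the arrays of the organs did not overlap for 766 genes (43.3%), 377 (21.3%) with inflorescence above leaf and 389 (22%) below. With slide as a block the counts were 239 and 238, and within slide 1 alone they were 203 and 208. Slide 2 has 1 array per organ and no test. All 372 called genes with a value there had the fitted sign on it, but its arrays had entered the fit. On slide 2, 47 of 119 named genes differed from the fitted value by over 1 SD of single arrays. The difference of 1 pair of arrays varies by more than that SD on its own, so this count does not measure an effect of the slide. Without leaf replicate 2 the counts were 219 and 173. The share of calls that were higher in inflorescence depended on how the arrays were scaled: it was 49.3% as scaled here, 63.8% when each array's 75th percentile was taken over all gene probes and 75.3% with the median of all gene probes. Those scalings moved the median difference of all tested genes from -0.09 to 0.14 and 0.53. Of 117 called genes named by rule or list or described here, 34 lost their call with the former, 32 with the latter and 29 with both. Among these 29 are MIR163, TAS4, AT2G33815, AT3G06125, AT3G52535, AT5G15845, AT1G20065, AT1G53233, AT2G01008, AT2G35945 and AT5G19221. The others are the coding genes AT5G08330, AT5G16010, AT5G20820, EDA3, FHY1, JAZ6, LEC1, LTI65, MYB3, NF-YA5, PIL5, PIL6, PIN3, PRR5, TOC1, TSB1, TSB2 and WRKY40. The calls of AT5G49152, IAA30, NRPD1A, NRPD1B and RDR2 were lost with the 75th percentile alone, and those of AT1G69572, MIR169d and PAD3 with the median alone.

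As scaled and filtered here, the classes of RNA differed in how often they were called and in which direction. Among 1293 lincRNAs, 94 were higher in inflorescence and 108 in leaf, 15.6% of those tested, with a median difference of -0.15. Annotated non-coding loci were called in 30.2% of 278 cases, 50 toward inflorescence and 34 toward leaf, with a median of 0.05. MicroRNA precursors were called in 35.2% of 105 cases, 9 toward inflorescence and 28 toward leaf, with a median of -0.24. These 105 count MIR167a, MIR167b and MIR167d under both of their names. Counted once, 34 of 102 precursors (33.3%) were called, 9 toward inflorescence and 25 toward leaf. Protein-coding genes were called in 55.7% of 88 cases, 30 toward inflorescence and 19 toward leaf, with a median of 0.61, but they were picked by the designers of the array. The median over all tested genes was -0.09. Direction within a class changed with the setting. Among genes above background on all 6 arrays, 14 lincRNAs were higher in inflorescence and 71 in leaf, as were 17 and 32 non-coding loci. With the median of all gene probes the counts were 103 and 27 for lincRNAs and 37 and 5 for non-coding loci. Precursors, with both names counted, kept more leaf calls in these settings (1 and 16, then 10 and 19). Of the other probes of called genes, 88.0% of 753 shared the sign of the gene's chosen probe, as did 82.25% of those of lincRNAs. Among other probes measured in the higher organ, a choice that favours the same sign, the share was 98.7%.

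**Figure D1:**
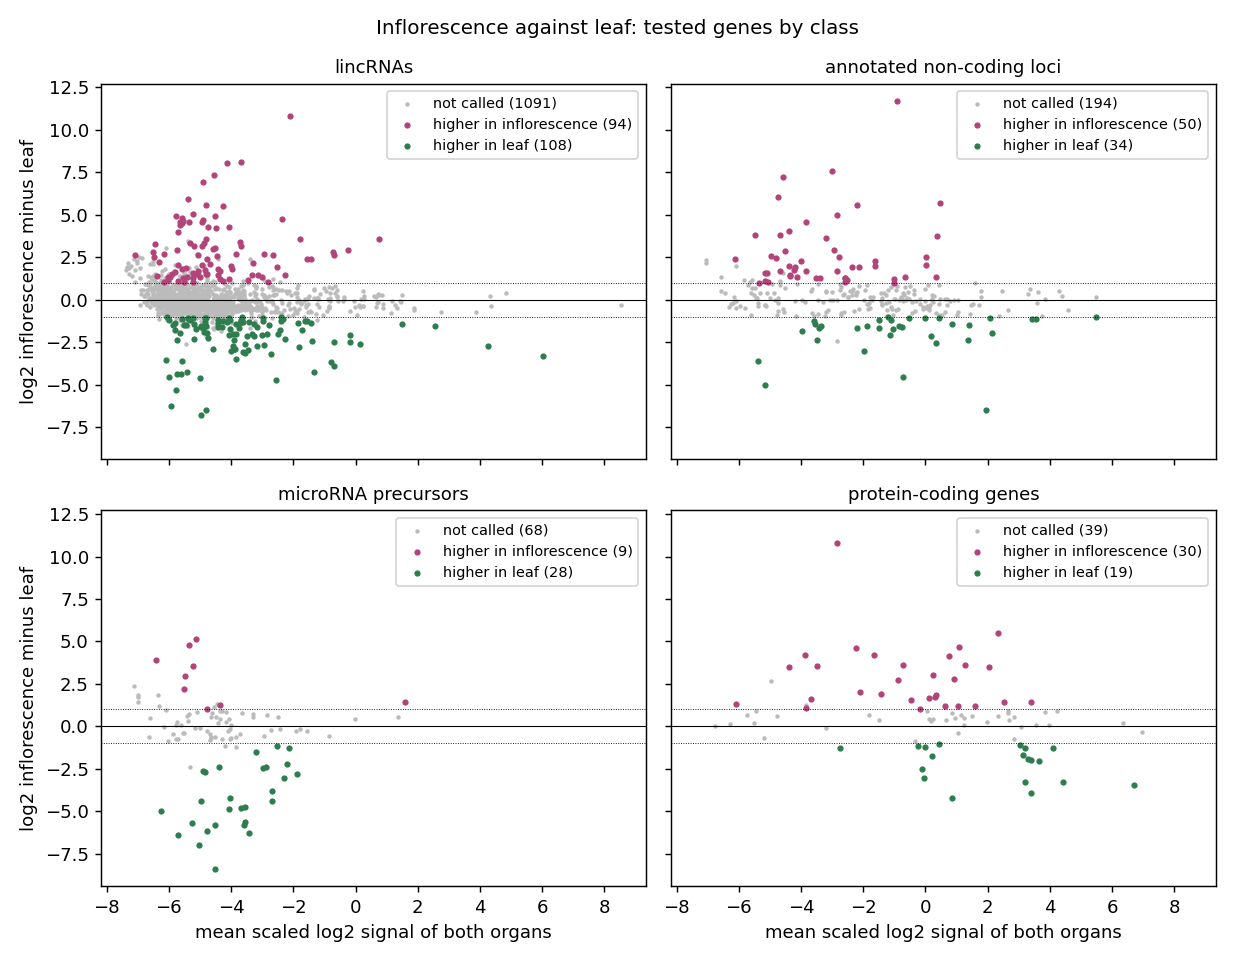
Log2 inflorescence minus leaf (y) against the mean scaled log2 signal of both organs (x) for each tested gene, in 1 panel per class, with called genes coloured and the 2-fold lines dotted. MicroRNA precursors lie mostly below 0 among the called points (9 against 28, or 25 with each precursor counted once), and the called lincRNAs (94 and 108) reach from dim to bright probes.

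Detection differed between the directions. Among all 1769 tested genes, 711 were well above background on all arrays of both organs. Leaf replicate 2 showed 766 of the tested genes well above background. Leaf replicates 1 and 3 showed 1658 and 1529, and the inflorescence arrays 1729 to 1752. Missing leaf detection was therefore common among tested genes, called or not. Of the 184 genes higher in inflorescence, 54 were well above background on all arrays of both organs and 34 had no probe above it on any leaf array. Of the 189 genes higher in leaf, 137 were measured on all arrays of both organs and 10 had no probe above background on any inflorescence array. The dim leaf array moved with this split: 130 genes higher in inflorescence were missing on at least 1 leaf array, and 75 of them were missing on leaf replicate 2 alone. Its part in the split was not tested, nor was whether called genes lacked leaf detection more often than all tested genes.

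MicroRNA precursors of the MIR169 family were the largest group with 1 direction. In Arabidopsis, miR169 is known to cut transcripts of NF-YA proteins, DNA-binding subunits of the CCAAT-binding factor NF-Y. Of 14 MIR169 precursors on the array, 10 were tested and 9 were higher in leaf, with differences from -5.79 to -2.65. The tenth, MIR169f, differed by -0.69 ± 0.78 and was not called (limma adjusted p = 0.617), its difference being 0.066 without inflorescence replicate 3, and MIR169b, MIR169c, MIR169e and MIR169g were too dim to be tested.

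MIR169a stood at -7.63, -7.54 and -7.10 on inflorescence arrays 1 to 3 and at -1.72, -1.62 and -1.55 on the leaf arrays. The organs were far apart on every array, and the difference was -5.79 ± 0.17 (limma adjusted p = 8.87e-07). On inflorescence arrays 1 and 2 the MIR169a probe was not well above background, so the size of this difference rests on dim signals. MIR169j stood at -5.20, -5.20 and -7.40 in inflorescence and at -1.07, -1.20 and -1.26 in leaf. Its difference was -4.75 ± 0.57, a 27.0-fold excess in leaf (limma adjusted p = 0.000502). MIR169m was at -4.13, -4.14 and -6.37 in inflorescence and at -0.37, -0.33 and -0.77 in leaf, 21.0-fold higher in leaf (-4.39 ± 0.60, limma adjusted p = 0.00108).

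In the gene table of the TAIR10.1 assembly, MIR169i to MIR169n are 6 loci in 1 stretch of chromosome 3, with other non-coding loci between MIR169j and MIR169k. As members of 1 family they may share near-identical sequence, so their probes may read one another's RNA, and their values are not separate evidence. The 6 differences ran from -5.78 (MIR169i) to -4.39 (MIR169m). MIR169a, MIR169d and MIR169h lie at other loci and differed by -5.79, -2.65 ± 0.52 and -4.39 ± 1.01. For MIR169d, MIR169h, MIR169i, MIR169j, MIR169k, MIR169l, MIR169m and MIR169n the inflorescence array of slide 2 was the dimmest, and without it the differences lay between -4.87 (MIR169k) and -1.98 (MIR169d). Of these, MIR169h, MIR169i, MIR169k, MIR169l and MIR169n were not well above background on the inflorescence array of slide 2. On that slide alone MIR169i differed by -8.59, against -4.37 on slide 1. Omitting inflorescence replicate 1 moved MIR169h to -5.16, MIR169i to -6.64, MIR169l to -5.37 and MIR169n to -5.61, and omitting replicate 2 moved MIR169i to -6.52 and MIR169n to -5.57.

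NF-YA5, the one NF-YA gene among the coding calls, lay the other way. Its signal was 1.25, 1.11 and 1.32 on the inflorescence arrays and -0.02, 0.20 and -0.05 on the leaf arrays, so the organs did not overlap. It was 2.27-fold higher in inflorescence (1.18 ± 0.14, limma adjusted p = 0.000432). It was no longer called under the scalings to the 75th percentile or the median of all gene probes (1.41 and 1.80, limma adjusted p = 0.213 and 0.126).

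The precursors of miR398, which is known to target copper superoxide dismutases, were also higher in leaf. MIR398a was at -9.11, -7.74 and -9.27 in inflorescence, below background on every array, and at -0.27, -0.31 and -0.36 in leaf. That made it at least 119-fold, or 13.3-fold over the common floor, higher in leaf (limma adjusted p = 3.94e-06). MIR398b and MIR398c differed by -6.13 ± 0.81 and -5.67 ± 0.65, the latter at least 27.4-fold, or 3.07-fold over the common floor. In inflorescence, MIR398b was well above background on replicate 1 alone. Leaving out inflorescence replicate 3 or 1 moved MIR398b to -5.24 or -7.12 and MIR398c to -4.84 or -6.29. MIR408, a further copper-linked precursor, overlapped between the organs (-0.70 ± 0.64, limma adjusted p = 0.517).

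Another pair of leaf-high precursors sits inside a bright non-coding locus. The locus AT4G13495 overlaps MIR850, MIR863 and MIR5026 in the TAIR10.1 table. Its signal was -1.15, -1.19 and -1.56 in inflorescence and 5.20, 5.31 and 4.99 in leaf, with no array between. It was 88.4-fold higher in leaf (-6.47 ± 0.18, limma adjusted p = 8.85e-07), and its 6 probes, 3 for each of 2 isoforms, lay between -6.47 and -5.78. MIR850 stood at -6.07, -6.21 and -7.37 in inflorescence and at -0.26, -0.40 and -0.15 in leaf, a 77.7-fold difference (limma adjusted p = 3.94e-05). MIR863 was below background on every inflorescence array (-9.04, -7.89 and -8.64) and at -1.59, -1.51 and -1.58 in leaf, at least 50-fold, or 5.62-fold over the common floor, higher there (limma adjusted p = 2.57e-06). The 3 probes of MIR863 ran from -6.97 to -1.48. RNA of the host locus and RNA of the precursors cannot be told apart by these probes.

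Precursors of microRNAs that act on auxin signalling lay on both sides: of 8 tested, 1 was called toward inflorescence and 2 toward leaf, with a median of 0.13. The call toward inflorescence, MIR160c, was named after its values were seen and differed by 1.05 ± 0.19 (limma adjusted p = 0.00664). MIR160a, below background on every leaf array, differed by 1.86 ± 0.69 and was not called. MIR167d was at -5.76, -6.66 and -6.02 in inflorescence and at -1.95, -2.01 and -1.87 in leaf. In Arabidopsis, miR167 targets the auxin response factors ARF6 and ARF8, which act in flower maturation. MIR167d was 18.4-fold higher in leaf (-4.20 ± 0.36, limma adjusted p = 9.41e-05), and a second set of probes under its locus name AT1G31173 gave -3.82 ± 0.33. MIR167b differed by -1.24 ± 0.16 and, under its locus name AT3G63375, by -1.17 ± 0.18, both called. For MIR167a the probes of the microRNA name gave -1.22 ± 0.52 (limma adjusted p = 0.129) and those of the locus name AT3G22886 gave -1.53 ± 0.30 (limma adjusted p = 0.00675).

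Other precursors higher in leaf had low inflorescence signals. MIR841 stood at -7.56, -9.31 and -9.82 in inflorescence, below background on every array, and at -2.38, -2.59 and -2.62 in leaf. It was at least 25.5-fold, or 2.86-fold over the common floor, higher in leaf (limma adjusted p = 0.000167), though its 3 probes ran from -6.37 to -1.001. Omitting inflorescence replicate 1 moved it from -6.37 to -7.04. Named after their values were seen, MIR396a, whose microRNA targets growth-regulating factors, differed by -2.77 ± 0.14, and MIR415 by -3.02 ± 0.18. MIR157c, a precursor of a microRNA that targets SPL factors, differed by -2.44 ± 0.76 (limma adjusted p = 0.0468), while 0 of 7 tested MIR156 precursors of the same SPL-targeting group were called. The MIR156 differences ran from -0.75 to 1.17.

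Toward inflorescence the precursor calls were fewer and mostly lower bounds. MIR839 stood at -2.30, -2.59 and -2.69 in inflorescence and below background on every leaf array (-7.18, -6.37 and -9.55). It was at least 12.2-fold, or 2.87-fold over the common floor, higher in inflorescence (limma adjusted p = 0.00129). MIR780 was at -2.80, -2.75 and -3.23 against -7.28, -6.20 and -9.75, at least 9.21-fold, or 2.17-fold over the common floor (limma adjusted p = 0.00537). Fitted differences of these precursors moved with leaf replicates 2 and 3: without them MIR839 ranged from 4.24 to 5.84 and MIR780 from 3.81 to 5.59. With normexp neither was called (0.78 and 0.65, limma adjusted p = 0.725 for both).

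MIR166f belongs to the family that targets class III HD-ZIP factors of leaf and meristem polarity. Its signal was -3.41, -3.60 and -3.37 in inflorescence and -7.73, -6.08 and -7.17 in leaf, all below background in leaf, at least 5.93-fold higher in inflorescence (limma adjusted p = 0.000606). Over the common floor it was 1.502-fold higher and not called, and with normexp its difference was 0.14 (limma adjusted p = 0.868). The other 5 tested MIR166 precursors were not called, at 0.10 to 0.84. MIR826 was at least 4.34-fold higher in inflorescence (limma adjusted p = 0.00804), but over the common floor it was not called (1.12-fold, limma adjusted p = 0.148). AT4G03038, a non-coding locus that overlaps it and was named after its values were seen, differed by -2.10 ± 0.14, with its 3 probes between -2.10 and 3.35. MIR163 was the only precursor called toward inflorescence that was measured on all arrays of both organs. Its signal was 2.43, 2.37 and 2.098 in inflorescence and 0.77, 0.999 and 0.80 in leaf, 2.72-fold higher in inflorescence (1.45 ± 0.15, limma adjusted p = 0.000248).

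**Figure D2:**
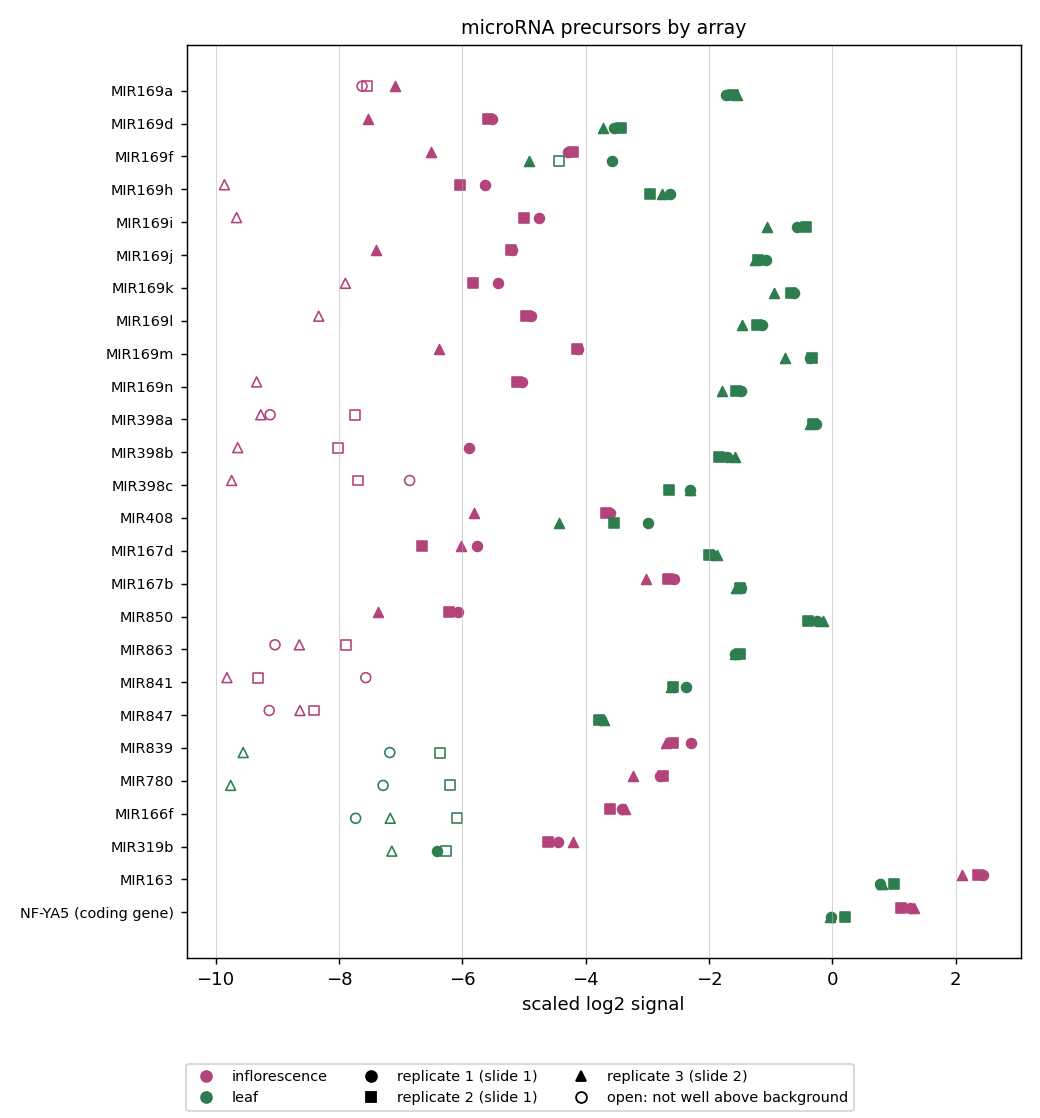
Scaled log2 signal (x) of 25 microRNA precursors and the coding gene NF-YA5 on each of the 3 inflorescence and 3 leaf arrays, by organ (colour), replicate and slide (shape) and detection (open symbols are not well above background). MIR169a lies near -7 in inflorescence and near -2 in leaf, while NF-YA5 lies above 1 in inflorescence and near 0 in leaf.

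By target group, precursors linked to leaf and flower development (41 tested) held 11 called toward leaf and 2 toward inflorescence, 9 of the 11 being MIR169. The 5 precursors whose microRNAs target small RNA proteins themselves, MIR162, MIR168 and MIR403 among them, had 0 calls by limma and differences from -0.59 to -0.24. Of 16 precursors tied to sulfate and phosphate nutrition, 1 passed the filter on low signal, and it was not called. Families without a place in these groups had 43 tested members, 6 called toward inflorescence and 9 toward leaf. The median of all precursors was -0.24 (-0.22 with each counted once) and that of all tested genes -0.09.

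Annotated non-coding loci held some of the largest differences toward inflorescence. AT2G47895 was at 3.47, 3.41 and 3.09 in inflorescence and at -2.22, -2.35 and -2.55 in leaf. All inflorescence arrays were far above all leaf arrays, 51.8-fold (5.69 ± 0.19, limma adjusted p = 1.13e-06). In the gene table it overlaps the tubby-like gene TLP3 and the coding gene AT2G47890. AT2G21187 was at 2.21, 2.31 and 2.16 against -1.42, -1.42 and -1.68, 13.3-fold (3.73 ± 0.14, limma adjusted p = 1.73e-06), and AT4G22233 at -0.43, -0.52 and -0.50 against -2.82, -2.72 and -2.80, 4.89-fold (2.29 ± 0.12, limma adjusted p = 6.68e-06). AT4G10507 differed by 2.93 ± 0.80 (limma adjusted p = 0.0285), but without inflorescence replicate 1, 2 or 3 its adjusted p was 0.0868, 0.0811 or 0.0586, and without leaf replicate 3 its difference was 1.91.

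AT2G42835, which overlaps the carpel and fruit MADS-box gene SHP2, stood at -1.68, -1.77 and -1.74 in inflorescence. Its leaf signals were -8.51, -6.30 and -8.51, below background on every array, and it was at least 21.2-fold, or 4.99-fold over the common floor, higher in inflorescence (limma adjusted p = 0.000374). Without leaf replicate 2 its fitted difference moved from 6.04 to 6.78. The following loci were chosen after their values were seen, for the known roles of the genes they overlap, and the other overlapping loci were not sorted by such roles. AT5G40348 overlaps MYB24, a transcription factor of stamen maturation, and stood at 0.82, 0.87 and 0.63 against -6.23, -5.84 and -8.36, with its 6 probes between 4.83 and 9.72. Without leaf replicate 3 its difference moved from 7.58 to 6.80. AT5G49152, over the gamete-expressed gene GEX2, was 3.24-fold higher in inflorescence (1.69 ± 0.15), and AT2G33815, over the flowering regulator SPL3, 2.42-fold (1.27 ± 0.21). AT5G15845, which overlaps the photoperiod gene CO and its relative COL1, was 2.54-fold higher in inflorescence (1.34 ± 0.19, limma adjusted p = 0.00125).

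Neither the gene table nor the labels give strands, so RNA of these loci and of the genes they overlap cannot be told apart. Overlap as such was common. Of 172 tested non-coding loci that overlap a coding gene, 32 were higher in inflorescence and 18 in leaf, 29.1% of them. Of 106 that overlap none, 18 and 16 were called, 32.1%. Also chosen after its values were seen, AT4G04077 was at 4.999, 5.01 and 4.78 in inflorescence and at -7.36, -5.90 and -7.07 in leaf, where its probe was below background on every array. For that probe the fold was at least 1946, or 503.9 over the common floor, and another of its probes was above background in leaf.

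AT3G14185 was at -0.91, -1.05 and -0.93 in inflorescence and below background in leaf (-8.996, -6.10 and -9.47), at least 36.0-fold, or 8.48-fold over the common floor, higher in inflorescence (limma adjusted p = 0.000314). Omitting leaf replicate 3 or 2 moved its fitted difference to 6.59 or 8.27. AT1G55525 was at least 2.33-fold higher in inflorescence (limma adjusted p = 0.0321), but all its signals lay under the common floor, so no difference could be seen over it. Its adjusted p was 0.0942, 0.0916, 0.0644 and 0.0606 without inflorescence replicate 1, 2 or 3 or leaf replicate 1, and its difference was 3.09 and 1.56 without leaf replicate 2 and leaf replicate 3.

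Toward leaf, AT4G40065 followed AT4G13495. It stood at -3.04, -2.94 and -3.00 in inflorescence and at 1.45, 1.48 and 1.76 in leaf, 23.6-fold (-4.56 ± 0.14, limma adjusted p = 8.87e-07), and its 3 probes lay between -4.83 and -4.54. AT2G07042 was 8.19-fold higher in leaf (-3.03 ± 0.17) and AT1G69572 5.25-fold (-2.39 ± 0.12). AT1G19968 was below background on every inflorescence array (-7.18, -7.19 and -8.69) and at -2.56, -2.83 and -2.52 in leaf, at least 23.7-fold, or 2.66-fold over the common floor, higher there (limma adjusted p = 5.75e-05). TAS4, whose trans-acting siRNAs target MYB factors, was the one member of the list of known regulatory RNAs on the array and was 2.01-fold higher in inflorescence (1.01 ± 0.17, limma adjusted p = 0.00303). Its fold was under 2 without inflorescence replicate 1 (0.96), inflorescence replicate 2 (0.99) or leaf replicate 2 (0.88). Its call was also lost after quantile normalization, in the authors' deposited table, with no filter and with probes averaged (limma adjusted p = 0.128, 0.125, 0.109 and 0.364). All its signals lay under the common floor, so no difference could be seen over it.

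**Figure D3:**
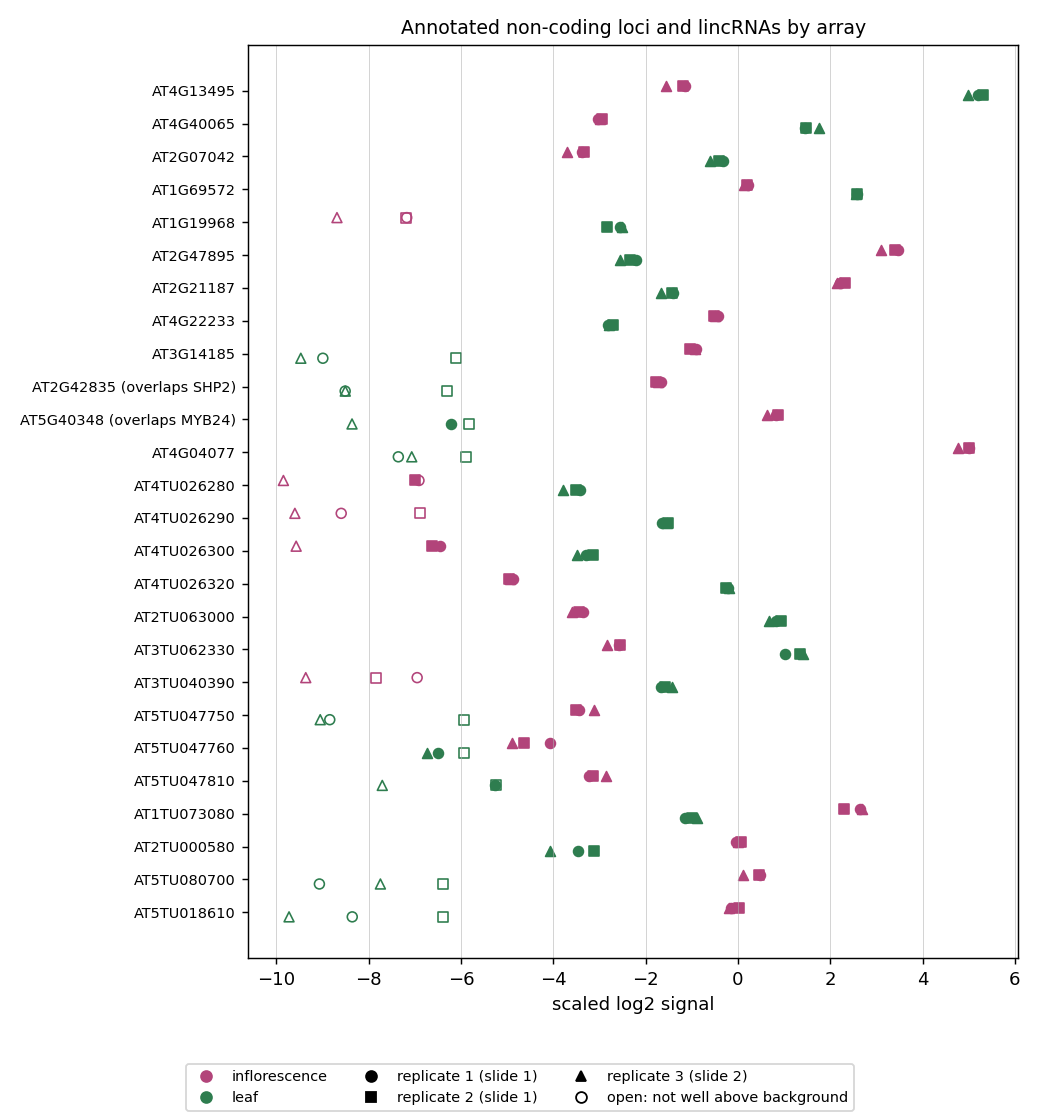
Scaled log2 signal (x) of 12 annotated non-coding loci and 14 lincRNAs on each of the 3 inflorescence and 3 leaf arrays, by organ (colour), replicate and slide (shape) and detection (open symbols are not well above background). In each of the 26 lines the arrays of one organ all lie on one side of the arrays of the other, and low-organ signals below background scatter widely.

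Isoforms of a locus could point in opposite directions. At AT3G06125, chosen after its values were seen, the 3 probes of isoform AT3G06125.1 lay above 0 (1.04 to 1.68), and those of AT3G06125.2 and AT3G06125.3 below it (-1.01 to -0.85 and -1.13 to -1.04). The brightest of its probes, which stands for the locus, differed by -1.13 ± 0.17 (limma adjusted p = 0.00173) and by -0.99 without inflorescence replicate 2. At AT3G52535 the probes of AT3G52535.1 differed by -0.45 to -0.26 and those of AT3G52535.2 by -1.42 to -1.37. The difference between isoforms was not tested. Of the other loci drawn, both isoforms of AT4G13495, AT4G04223, AT2G21187 and AT5G40348 lay on the same side.

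**Figure D4:**
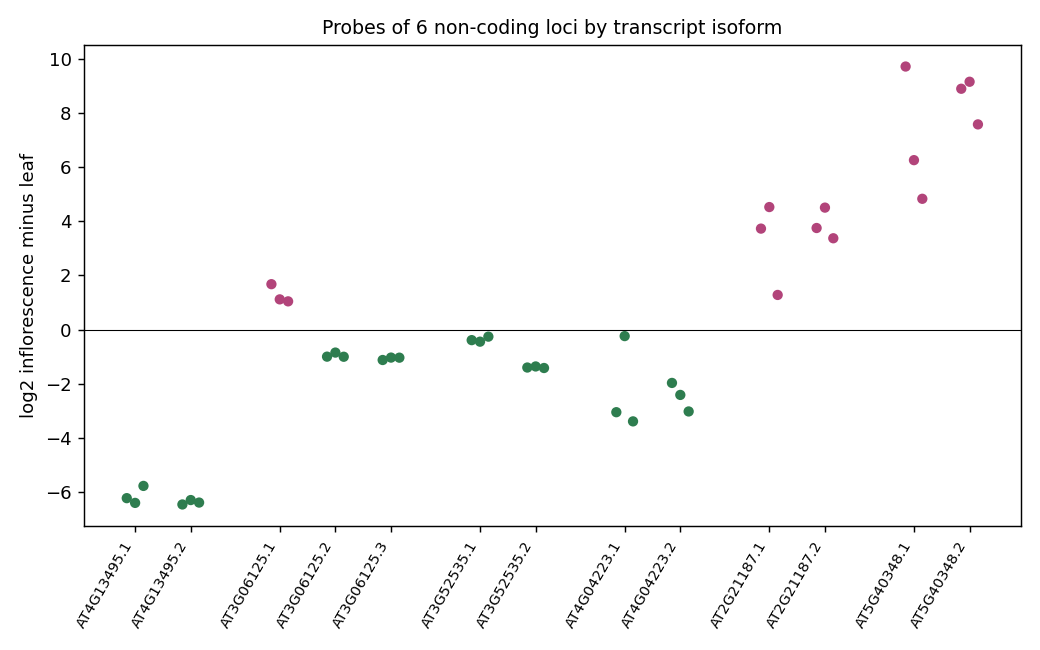
Log2 inflorescence minus leaf (y) of the single probes of 6 non-coding loci, grouped by the transcript isoform they were designed for (x), with probes above 0 and below 0 in different colours. The 3 probes of AT3G06125.1 lie above 0 and the 6 probes of its other isoforms below it.

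The called lincRNAs differed by a median of 2.59 toward inflorescence (94) and 1.85 toward leaf (108) in absolute log2 terms, and those not called by 0.46. By chromosome, 16.9%, 13.7%, 15.8%, 15.7% and 15.7% of the tested lincRNAs of chromosomes 1 to 5 were called. On chromosome 5 the calls toward inflorescence (27) outnumbered those toward leaf (19), and on chromosome 1 the reverse held (22 and 33). The difference between chromosomes was not tested.

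Toward leaf, AT2TU063000 on chromosome 2 was at -3.35, -3.45 and -3.60 in inflorescence and at 0.82, 0.93 and 0.68 in leaf. The gap between the organs was far wider than the spread within them, 19.4-fold (-4.28 ± 0.26, limma adjusted p = 1.41e-05), and its 3 probes lay between -4.28 and -4.20. AT3TU062330 was at -2.57, -2.55 and -2.83 against 1.03, 1.35 and 1.41, 15.1-fold (-3.91 ± 0.18, limma adjusted p = 4.01e-06). AT3TU041050, whose probe name gives a start at position 11776550 of chromosome 3, was 12.6-fold higher in leaf (-3.65 ± 0.35), with 3 probes between -3.65 and -0.91. Its call was lost with the probes averaged (-1.96, limma adjusted p = 0.0834). AT5TU087180 was 11.1-fold higher in leaf (-3.48 ± 0.46). No source used here names the build of these positions.

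Lower bounds toward leaf were largest for AT3TU040390. It was below background on every inflorescence array (-6.95, -7.85 and -9.37) and at -1.67, -1.58 and -1.43 in leaf, at least 50-fold, or 5.62-fold over the common floor (limma adjusted p = 7.36e-05). AT5TU090930 and AT1TU090190 were at least 16.8-fold and 7.16-fold higher in leaf, but neither was called over the common floor (1.89-fold and 1.102-fold, limma adjusted p = 0.241 and 0.553). Omitting inflorescence replicate 3 moved the fitted difference of AT3TU040390 from -6.50 to -5.84 and that of AT1TU090190 from -3.53 to -2.76, and without inflorescence replicate 1 the latter was -4.11.

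Some called lincRNAs were neighbours. When called lincRNAs whose transcript-unit numbers lay within 100 of each other on 1 chromosome were joined, 33 lincRNAs fell into 15 runs, and in 11 runs all calls had 1 direction. The run with most members was on chromosome 4: AT4TU026280, AT4TU026290, AT4TU026300 and AT4TU026320 were the 4 tested lincRNAs in their span, and all were higher in leaf. AT4TU026320 stood at -4.87, -4.96 and -4.93 in inflorescence and at -0.22, -0.25 and -0.20 in leaf, 26.0-fold (-4.70 ± 0.21, limma adjusted p = 3.94e-06). AT4TU026290 was below background on every inflorescence array (-8.60, -6.90 and -9.60) and at -1.65, -1.52 and -1.55 in leaf, at least 46.4-fold, or 5.55-fold over the common floor (limma adjusted p = 0.00011). AT4TU026280 and AT4TU026300 differed by -4.35 ± 0.80 and -4.26 ± 0.998, and neither was called over the common floor (-0.47 and -0.74). Without inflorescence replicate 3 the values of AT4TU026280, AT4TU026290 and AT4TU026300 were -3.38, -6.17 and -3.25, and without inflorescence replicate 2 AT4TU026290 was at -7.53. Such neighbours may be pieces of 1 transcript, and whether they are separate RNAs was not tested.

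The other run, AT5TU047750, AT5TU047760 and AT5TU047810 on chromosome 5, was higher in inflorescence. AT5TU047750 was at -3.44, -3.51 and -3.12 in inflorescence and below background on every leaf array (-8.85, -5.94 and -9.05), at least 6.85-fold higher in inflorescence (limma adjusted p = 0.00311), or 1.61-fold over the common floor and then not called, and its fitted difference moved from 4.59 to 5.59 without leaf replicate 2. AT5TU047760 differed by 1.86 ± 0.42 and AT5TU047810 by 3.00 ± 0.90 (limma adjusted p = 0.0119 and 0.041). Over the common floor AT5TU047810 was not called (0.97), and all signals of AT5TU047760 lay under that floor. The call of AT5TU047810 was lost without inflorescence replicate 1, 2 or 3 (adjusted p = 0.0931, 0.101 and 0.105) and without leaf replicate 1 or 3 (adjusted p = 0.0552 and 0.101, with a difference of 2.18 without leaf replicate 3).

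Among single lincRNAs toward inflorescence, AT1TU073080 on chromosome 1 was at 2.64, 2.30 and 2.69 in inflorescence and at -1.15, -1.001 and -0.88 in leaf. It was 11.7-fold higher in inflorescence (3.55 ± 0.15, limma adjusted p = 3.46e-06), with 3 probes between 3.50 and 3.74. AT2TU000580 was at -0.05, 0.07 and 0.00 against -3.46, -3.13 and -4.07, 11.8-fold (3.56 ± 0.28, limma adjusted p = 6.19e-05), but another of its probes, not measured in all inflorescence arrays, lay at -1.17. AT2TU056230 and AT2TU032570 differed by 2.91 and 2.79, though a further probe of AT2TU032570 lay at -1.03. With the probes of a gene averaged, AT2TU000580 and AT2TU056230 were no longer called (1.20 and 1.87, limma adjusted p = 0.231 and 0.109). AT4TU024160 differed by 2.66 ± 0.65 (limma adjusted p = 0.0181), by 2.07 without leaf replicate 3, and its adjusted p was 0.0578 and 0.0620 without inflorescence replicate 1 and 2.

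AT5TU080700 gave the largest bound toward inflorescence among lincRNAs that had no probe above background in leaf. It stood at 0.48, 0.45 and 0.12 in inflorescence and at -9.07, -6.39 and -7.75 in leaf, at least 89.4-fold, or 21.1-fold over the common floor (limma adjusted p = 6.83e-05). AT5TU018610, AT1TU057020 and AT3TU068440 were at least 65.3-fold, 38.3-fold and 25.7-fold higher, and 15.4-fold, 9.02-fold and 6.06-fold over the common floor. The fitted differences of these 4 moved with single leaf arrays. AT3TU068440 lay between 6.25 without leaf replicate 3 and 7.97 without leaf replicate 2. For AT5TU080700 the range was 7.42 without leaf replicate 1 to 8.76 without leaf replicate 2. For AT5TU018610 it was 7.27 without leaf replicate 3 to 8.94 without leaf replicate 2, and for AT1TU057020 6.74 without leaf replicate 3 to 8.35 without leaf replicate 2.

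Protein-coding genes were described by list. Beside the 55.7% called over all coding genes (34.1% toward inflorescence), 85.7% of the tested clock genes, 54.5% of the light genes, 75% of the jasmonate genes, 58.3% of the abscisic acid, cold and drought genes, 50% of the embryo and seed genes and 44.4% of the small RNA genes were called. Of 13 clock genes listed, 7 were on the array and tested. The clock runs on MYB factors that peak at dawn and on pseudo-response regulators that follow through the day. The dawn factors LHY and CCA1 and the early regulator PRR9 were higher in inflorescence, and the later regulators TOC1, PRR5 and PRR3 were higher in leaf. With the hour of harvest unknown for both organs, organ and hour cannot be told apart in these genes. LHY stood at 5.05, 5.18 and 5.05 in inflorescence and at -0.51, -0.39 and -0.39 in leaf, 45.9-fold (5.52 ± 0.13, limma adjusted p = 5.85e-07). CCA1 differed by 4.70 ± 0.18 and PRR9 by 3.62 ± 0.12. PRR3 was at -1.49, -1.64 and -1.56 against 1.44, 1.53 and 1.38 (-3.01 ± 0.12, limma adjusted p = 2.51e-06), TOC1 differed by -1.94 ± 0.12 and PRR5 by -1.09 ± 0.12. PRR7 differed by -0.76 ± 0.13 and was not called, its fold being under 2. Under the scalings to the 75th percentile or the median of all gene probes the list held 1 leaf call and 3 toward inflorescence. The list's median was -0.76, that of all coding genes 0.61.

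Light signalling genes lay on both sides. Of 11 tested, 2 were higher in inflorescence and 4 in leaf, with a median of 0.28, a share near that of all coding genes. PIF4, PIL5 and PIL6 are bHLH factors that phytochromes remove in light, and all 3 were higher in leaf. PIF4 was at 1.73, 1.52 and 1.497 in inflorescence and at 4.89, 4.77 and 4.85 in leaf, 9.52-fold (-3.25 ± 0.17, limma adjusted p = 6.57e-06), PIL6 differed by -1.26 ± 0.16 and PIL5 by -1.20 ± 0.13. HFR1, a bHLH protein that binds and holds back PIF factors, was at -0.10, 0.10 and 0.21 in inflorescence and at -3.98, -5.92 and -3.68 in leaf. It was higher in inflorescence by 4.60 ± 0.57 (limma adjusted p = 0.000592) and by 3.90 without leaf replicate 2. FHY1 and FHL carry phytochrome A into the nucleus. FHL was higher in inflorescence (2.02 ± 0.18), and FHY1 was higher in leaf (-1.04 ± 0.14) with a fold under 2 without inflorescence replicate 2 (-0.95) or leaf replicate 3 (-0.97). With normexp neither FHL nor FHY1 was called (1.01 and -0.74, limma adjusted p = 0.237 and 0.151). The photoreceptors PHYA and PHYB (0.55 and 0.66), COP1 (0.28), HY5 (0.61) and PIF3 (-0.41) were not called. With the probes of a gene averaged, HY5 was called toward inflorescence (1.52, limma adjusted p = 0.000396). Under either scaling over all gene probes the list held 1 leaf call.

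The JAZ proteins are repressors of jasmonate responses whose own genes are induced by the hormone. All 4 tested members were above 0, as were 62 of the 88 tested coding genes. Of the 4, 3 were called toward inflorescence, with a list median of 2.48. JAZ10 was at 3.18, 3.06 and 2.95 in inflorescence and at -0.66, -0.21 and -0.75 in leaf, 12.2-fold (3.60 ± 0.17, limma adjusted p = 5.08e-06). JAZ5 differed by 3.49 ± 0.13 and JAZ6 by 1.47 ± 0.12. With either scaling over all gene probes the call of JAZ6 was lost (limma adjusted p = 0.143 and 0.0584), leaving 2 in the list. TIFY7, the fourth, differed by 0.90 ± 0.15 and was not called, though without leaf replicate 3 it was (1.03). It was also called after quantile normalization, in the authors' deposited table and with probes averaged (1.38, 1.47 and 1.08).

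Genes of abscisic acid, cold and drought responses lay on both sides, 3 of 12 toward inflorescence and 4 toward leaf, with a median of 0.10. The seed transcription factor ABI5 and AFP1, which binds it, were higher in inflorescence. ABI5 was at 2.87, 2.83 and 2.76 in inflorescence and at -1.35, -1.34 and -1.29 in leaf, 17.8-fold (4.15 ± 0.17, limma adjusted p = 2.51e-06), and AFP1 differed by 3.01 ± 0.14. KIN1, a cold-induced gene, differed by 2.72 ± 0.25 with 3 probes between -2.15 and 3.23. The cold-induced genes LTI78, COR15A and COR15B were higher in leaf. LTI78 was at 1.30, 1.28 and 1.72 against 5.24, 5.36 and 5.52, 15.3-fold (-3.94 ± 0.18, limma adjusted p = 3.94e-06), and COR15B and COR15A differed by -3.44 ± 0.15 and -3.25 ± 0.17. LTI65 (RD29B) differed by -1.25 ± 0.39 (limma adjusted p = 0.0468), and its call was lost without inflorescence replicate 1, 2 or 3 (limma adjusted p = 0.0738, 0.0824 and 0.137) or leaf replicate 1 or 2 (0.129 and 0.126). ABI1, ABI2, ABI3, ABI4 and COR47 were not called (0.11, 0.09, 0.21, 0.14 and -0.31). ABI3 and ABI4 lay below 0 without inflorescence replicate 1 (-0.15 and -0.14), inflorescence replicate 2 (-0.01 and -0.10) or leaf replicate 3 (-0.06 and -0.34), as did ABI3 without leaf replicate 2 (-0.02).

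Of the embryo and seed list, 4 of 5 genes on the array were tested and 2 were called, both toward inflorescence, with a median of 1.99. The list was chosen with earlier results of these data known. MEE26 is its only gene from the stretch of chromosome 2 described below, whose other genes on the array were left off. Of the other tested members, LEC1 was called and FUS3 and EM1 were not. MEE26, a gene named for a maternal-effect embryo arrest mutant, was at 2.47, 2.58 and 2.57 in inflorescence and below background on every leaf array (-9.03, -6.13 and -9.52). It was at least 408-fold, or 96.1-fold over the common floor, higher in inflorescence (limma adjusted p = 4.41e-05), and its fitted difference moved from 10.77 to 10.12 without leaf replicate 3 and to 11.81 without leaf replicate 2. LEC1, a regulator of embryo identity, differed by 1.32 ± 0.26 (limma adjusted p = 0.00684) at low signals of -5.41, -5.39 and -5.54 against -6.84, -6.37 and -7.07. Besides the scalings over all gene probes, its call was lost after quantile normalization, in the authors' deposited table, with no filter and with probes averaged (limma adjusted p = 0.0611, 0.0533, 0.0814 and 0.193). All these signals lay under the common floor, so no difference could be seen over it. FUS3 (0.67 ± 0.35) was not called. EM1, a late embryogenesis gene, was not called either (2.65 ± 1.13, limma adjusted p = 0.13), and it moved to 1.75 and 3.32 without leaf replicate 3 and leaf replicate 1. It was called with the replicate number or slide as a block and within slide 1 (limma adjusted p = 0.0318, 0.0195 and 0.0112). Both scalings over all gene probes also called it (limma adjusted p = 0.0209 and 0.000485). After quantile normalization, in the authors' deposited table and with probes averaged it was called too (limma adjusted p = 0.0118, 0.011 and 0.0254).

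By their locus codes, several called genes outside the list lie near MEE26 (AT2G34870) on chromosome 2. Also above background on every inflorescence array were AT2G34780, AT2G34850 and AT2G34880 of the same stretch, and none was among the coding calls. MEE23 (AT2G34790) differed by 2.77 ± 0.17, WRKY35 (AT2G34830) by 3.55 ± 0.36 and EDA18 (AT2G34920) by 1.92 ± 0.13, all higher in inflorescence. With normexp WRKY35 and EDA18 were not called (1.13 and 1.15, limma adjusted p = 0.383 and 0.0644). EDA3 (AT2G34860), also from a set of embryo-sac arrest genes by its name, was higher in leaf: its signal was 2.38, 2.48 and 2.32 in inflorescence and 4.35, 4.37 and 4.46 in leaf (-2.00 ± 0.12, limma adjusted p = 1.41e-05).

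Of 27 small RNA genes listed, 9 were on the array, and all were tested. All 9 were above 0 in each of the 22 settings run, which reuse the same arrays. As reported, 62 of the 88 tested coding genes were also above 0. Of the 9, 4 were called, all toward inflorescence, and the list's median was 0.94 against 0.61 for all coding genes. The share called, 44.4%, was below that of all coding genes (55.7%) and, toward inflorescence, above their 34.1%, and neither difference was tested. The 4 act in RNA-directed DNA methylation: NRPD1A (NRPD1) and NRPD1B (NRPE1) are the largest subunits of RNA polymerases IV and V, RDR2 makes the RNA double-stranded, and DCL3 cuts it into siRNAs. DCL3 was at 1.35, 1.37 and 1.06 in inflorescence and at -0.65, -0.35 and -0.74 in leaf, 3.58-fold (1.84 ± 0.18, limma adjusted p = 0.000169). NRPD1B differed by 1.75 ± 0.12, RDR2 by 1.65 ± 0.14 and NRPD1A by 1.57 ± 0.16. DCL2 (0.94), DCL1 (0.60), DCL4 (0.52), DRB4 (0.48) and AGO2 (0.44) were under 2-fold and not called. With the 75th percentile over all gene probes 1 member was called.

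**Figure D5:**
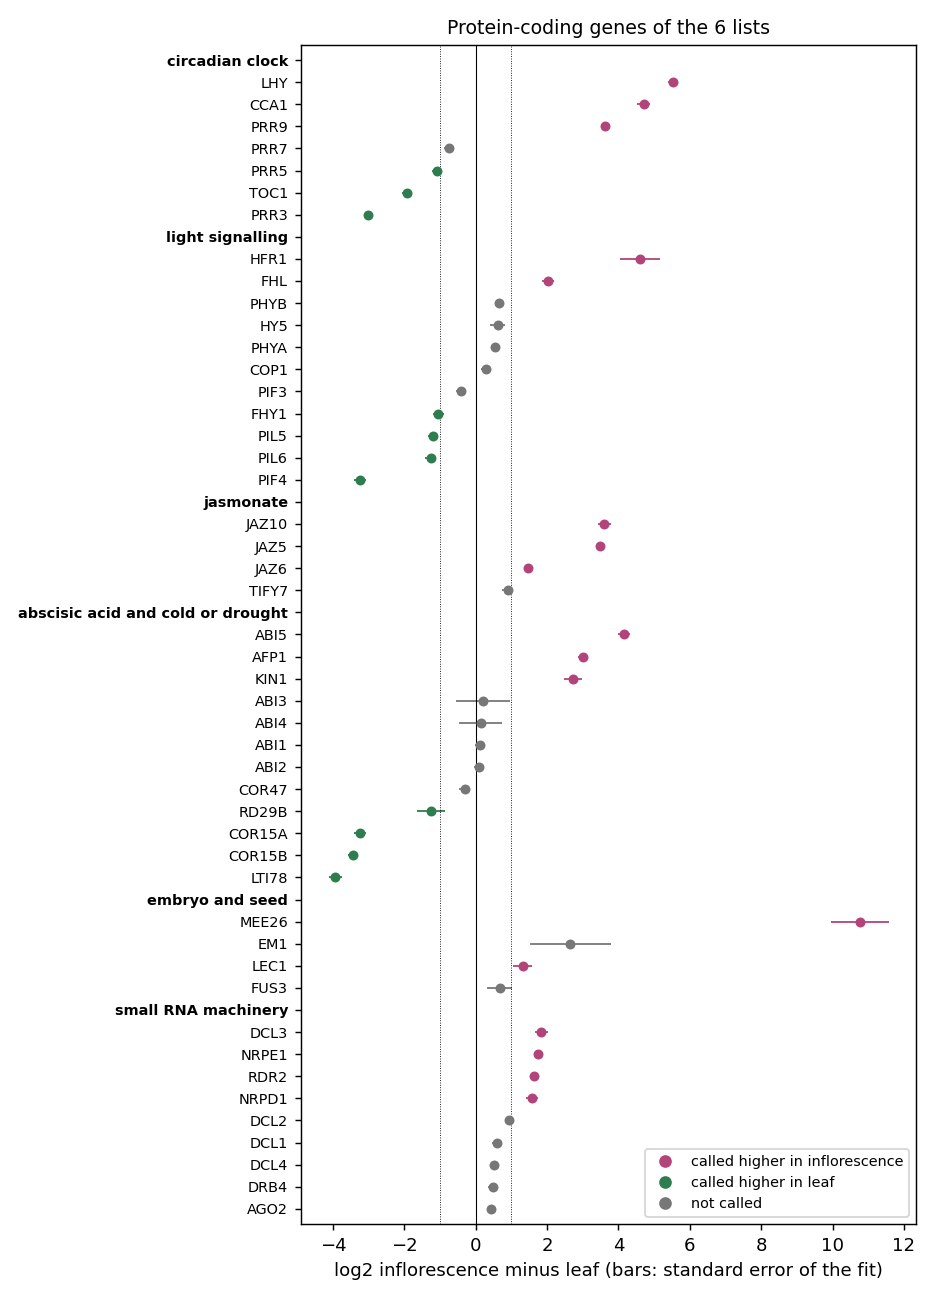
Log2 inflorescence minus leaf (x) with its standard error for the tested protein-coding genes of 6 lists, coloured by call, with the 2-fold lines dotted. Small RNA machinery and the JAZ genes lie above 0 throughout, while the clock, light and abscisic acid lists hold calls on both sides.

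The remaining coding calls belonged to no list. Of these, the transcription factors NAC080 (4.18 ± 0.12), MYB107 (4.22 ± 0.14) and MYB45 (3.51 ± 0.33) had the largest differences toward inflorescence. Neither MYB107 nor MYB45 was well above background on leaf replicate 2. With normexp neither was called (1.14 and 0.68, limma adjusted p = 0.466 and 0.725). NAC080 stood at 0.42, 0.45 and 0.39 in inflorescence and at -3.83, -3.67 and -3.76 in leaf, 18.1-fold (limma adjusted p = 8.85e-07). WRKY40, MYB3, PIN3, an auxin efflux carrier, and IAA30, an Aux/IAA protein, differed by 1.44, 1.23, 1.21 and 1.64, and AT1G20065 by 1.11. Toward leaf, AT1G24148 was at -1.34, -1.05 and -1.36 in inflorescence and at 2.97, 2.99 and 2.997 in leaf, 18.9-fold (-4.24 ± 0.32, limma adjusted p = 4.41e-05). PAD3, which makes the defence compound camalexin, differed by -2.48 ± 0.14, AT5G16010 by -2.03, AT2G01008 by -1.71, AT5G08330, a TCP transcription factor, by -1.70 and AT5G20820 by -1.15.

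Paralogous genes for the tryptophan synthase beta subunit pointed in opposite directions. TSB1 was at 3.22, 3.60 and 3.50 in inflorescence and at 4.82, 4.73 and 4.66 in leaf, 2.45-fold higher in leaf (-1.29 ± 0.15, limma adjusted p = 0.000387). TSB2 was at 0.45, 0.38 and 0.16 against -0.54, -0.61 and -0.95, 2.04-fold higher in inflorescence (1.03 ± 0.18, limma adjusted p = 0.00413), and its fold was under 2 without inflorescence replicate 1 (0.97) or leaf replicate 3 (0.90). In the auxin list, the receptor TIR1 was the single gene on the array and was not called (-0.70 ± 0.22).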

How the data were processed

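Total RNA of each organ was DNase-treated, and Cy3-labelled cRNA was hybridised to 1-colour Agilent arrays, per the labels' protocols. The deposited scanner files hold spot intensities from Agilent Feature Extraction 10.5.1.1, background-subtracted and detrended but not normalised between arrays, per the file headers. The authors' deposited table of the whole series holds log2 signals whose columns have medians of 1.41 and correlate with the log2 intensities of their arrays at 0.966 to 0.998. No direction enters, its values were not centred per gene, and how its scale was made is unknown. It served as an alternative.

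Log2 intensities were scaled to the 75th percentile over 1345 probes well above background on all 9 arrays. Control spots, promoter-construct spots and 71 outlier spots were dropped. Saturation touched 0 gene spots. The probe with the highest mean stood for its gene. Genes were grouped by the systematic name in the files, and 400 of 405 locus codes and 166 of 173 microRNA names matched the TAIR10.1 gene table. Organ means over all 9 arrays, root included, were fitted with limma 3.58.1 (lmFit, eBayes) in R 4.3.3, and p-values were adjusted by Benjamini-Hochberg over the 1769 genes. On data simulated for this comparison over 1769 genes, 40% of changes of 1.5 and 80% of changes of 3 (log2) were called, with 6 false calls. The number of arrays limits the precision.

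Named were the called genes with the largest folds among those above background on every array (5 lincRNAs, 4 non-coding loci and 5 precursors each way, other measured probes pointing the same way), those with the largest bounds (4, 3 and 4), all called coding genes, list members, and the 2 runs of neighbouring lincRNAs with most calls. Members and lists were chosen with earlier results of these data known. The normexp alternative used median spot signals with an offset of 50, because mean signals are not in the files. Replicate numbers came from the sample titles. Deviations of same-numbered inflorescence and leaf arrays correlated at 0.497, 0.201 and 0.627, so they were also fitted as a block. Replicates 1 and 2 of different number, which share slide 1, correlated at 0.260 and 0.562. Nothing in the labels beyond the word replicate says how the plants were pooled, so p-values measure the spread between these samples. Promoter sequences and mature microRNA sequences were not used here.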

Additional observations from a re-analysis of the deposited data

How the results depend on the processing

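Counts of calls toward inflorescence and leaf, 184 and 189 as reported, depended on the processing. They were 139 and 79 with the 75th percentile over all gene probes, 174 and 57 with the median of all gene probes, 244 and 197 after quantile normalization, 245 and 196 in the authors' deposited table, and 45 and 74 with normexp, where 116 of the 373 calls were kept and 257 lost, 45 of the latter with a changed sign. With a common floor under all signals they were 104 and 135, with only genes above background on all 6 arrays 54 and 138 of 711 (fewer genes are tested), with the probes of a gene averaged 150 and 122, and with no filter 137 and 155 of 5077. Fits of the 6 arrays alone gave 176 and 187. Leaving out 1 array gave 160 to 219 toward inflorescence and 161 to 179 toward leaf. With the replicate number as a block they were 229 and 235. Of the 373 calls 372 held, and AT3TU065630 was lost (limma adjusted p = 0.0574). The further calls were gained, EM1 being the only named gene among them. Slide as a block without leaf replicate 2, chosen after seeing the data, gave 265 and 263.

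Among 138 named genes over 21 alternatives, a value that was called as reported or under the alternative changed sign for COR47 after quantile normalization (1.16) and, with normexp, for LEC1 (-0.34), AT1G55525 (-0.21), TAS4 (-0.36), AT5G15845 (-0.0069) and AT5TU047760 (-0.10). Values called in neither also changed sign somewhere for ABI2, ABI3, ABI4, COR47, EM1, MIR169f and PIF3. The cause was not tested. With normexp, 40 more named calls were lost without a change of sign. The precursors among them are MIR166f, MIR167d, MIR169d, MIR169h, MIR780, MIR826, MIR839 and MIR841. The coding genes among them are AT1G20065, AT5G20820, EDA18, FHL, FHY1, IAA30, LTI65, MYB45, MYB107, PIL5, TSB1, TSB2 and WRKY35. The non-coding loci are AT1G19968, AT1G53233, AT2G33815, AT2G42835, AT3G06125, AT3G14185, AT4G10507, AT5G19221 and AT5G49152. The lincRNAs are AT1TU057020, AT1TU090190, AT3TU068440, AT4TU024160, AT4TU026280, AT4TU026300, AT5TU047750, AT5TU047810, AT5TU087180 and AT5TU090930. Over the common floor 16 named calls were lost, and the folds of genes below background in 1 organ shrank. The calls of AT1G55525, AT5TU047760, LEC1 and TAS4 were lost there because every signal lay under the floor. Dim probes limit the comparison: 130 calls toward inflorescence were not measured on all leaf arrays. The promoter motif search was not run.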
